A study of Homo sapiens with 9 samples.

Results

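Messenger RNA of 6 human ribosomal protein paralogs whose symbols carry an L suffix (RPL22L1, RPL7L1, RPL26L1, RPL39L, RPL36AL and RPS27L) was followed in MHCC97H cells after RPL6 depletion. The members were taken by symbol, as the protein-coding genes of that name, from a table of 60683 genes, and each was read beside the gene it resembles (RPL22, RPL7, RPL26, RPL39, RPL36A and RPS27), called its parent here. All 6 paralogs and all 6 parents passed the filter on low counts, as did 16146 genes of the table in all. MHCC97H is a hepatocellular carcinoma line of high metastatic potential, and the cells were selected with puromycin after lentiviral delivery of a short hairpin RNA. The 9 libraries form 3 groups of 3: cells with hairpin shRPL6-1 and cells with hairpin shRPL6-2, both with the labelled genotype RPL6 knockdown, and cells with the control hairpin shCont, labelled WT. All are 1 cell line, and nothing in the labels or methods ties the libraries of a group to separate cultures. The p-values therefore cover the library-to-library spread alone, and that spread may be technical.

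Ribosomal proteins are for the most part encoded by single genes in mammals, and a small number have a second expressed copy. Such a copy usually encodes a protein close to that of the parent, and either can be built into a ribosomal subunit. Some are known for restricted expression, such as RPL39L in the mouse testis, and some for regulation of their own, such as RPS27L, a target of the tumour suppressor p53, and RPL22L1, whose expression is repressed by RPL22 in the mouse. Messenger RNAs of the core ribosomal proteins usually begin with a cytidine followed by a run of pyrimidines at the 5′ end, the TOP motif, through which their translation is adjusted to growth conditions.

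Total counts ran from 13638468 to 16149480 per library, and RPL6 checked the labels of hairpin against control. RPL6 was similarly low with either hairpin, so which libraries belong to which hairpin rests on column names alone. Levels are CPM, counts scaled by library total and TMM factor. RPL6 ran from 12.9 to 15.8 CPM in the shRPL6-1 libraries and from 11.7 to 21.4 CPM in the shRPL6-2 libraries, against 478 to 518 CPM in shCont. shCont replicate 3 stood apart from its group. Its chi-square per degree of freedom over genes was 64.4 and 64.6 against shCont replicates 1 and 2, which differed from each other by 9.98. Pairs of libraries within shRPL6-1 gave 14.8, 25.5 and 30.1, and pairs within shRPL6-2 gave 22.6, 28.8 and 54.8. The value of 54.8 was between shRPL6-2 replicates 2 and 3. Keratins KRT8 and KRT18 were abundant in every library (at least 1034 and 394 CPM), whereas the hepatocyte markers ALB, AFP, APOA1, APOB, SERPINA1, TTR and TF stayed below 1 CPM throughout, so that messages defining hepatocytes were at or near 0 under the label Liver. Together with EPCAM and CDH1 these 11 markers summed to 2269 to 2809 CPM with shRPL6-1 and to 2012 to 3244 CPM with shRPL6-2, against 1432 to 2557 CPM in shCont. Of 10 endothelial, fibroblast and leukocyte markers, CD3E was at 0 and PECAM1, PTPRC and LYZ stayed below 1 CPM. COL1A1 (56.9 to 92.6 CPM), CDH5 (16.4 to 46.5), CD68 (6.94 to 25.7) and PDGFRB (2.13 to 4.46) were above 1 CPM in every library. VWF and COL3A1 were above 1 CPM in some libraries only. The 10 summed to 101 to 121 CPM with shRPL6-1 and to 98.7 to 106 CPM with shRPL6-2, against 116 to 171 CPM in shCont. Mitochondrially encoded genes took 4.74% to 5.48% of counts with shRPL6-1 and 4.04% to 5.99% with shRPL6-2, against 6.56% to 7.19% in shCont. The part of these differences in the results below was not tested.

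The coding sequences show how near each paralog stands to its parent. Identity is given as identical bases over the full length of the coding alignment, gap positions included. It was 94.77% for RPL39L, 89.94% for RPL36AL, 84.14% for RPL26L1, 77.78% for RPS27L, 66.58% for RPL22L1 and 55.53% for RPL7L1. The first 60 coding bases of 4 pairs are shown because these are the most alike. Capitals mark the bases that differ within the pair, and the sequences come from GENCODE 29 transcripts on GRCh38.
RPL26L1: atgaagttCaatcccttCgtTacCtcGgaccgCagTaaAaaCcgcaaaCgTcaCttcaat
RPL26: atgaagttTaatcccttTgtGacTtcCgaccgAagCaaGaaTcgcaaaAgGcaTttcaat
RPL39L: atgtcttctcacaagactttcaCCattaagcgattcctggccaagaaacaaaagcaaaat
RPL39: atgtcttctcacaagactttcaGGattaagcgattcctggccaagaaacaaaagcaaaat
RPL36AL: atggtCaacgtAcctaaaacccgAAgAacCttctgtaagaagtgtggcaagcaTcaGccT
RPL36A: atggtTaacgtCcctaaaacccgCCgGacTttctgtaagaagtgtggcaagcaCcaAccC
RPS27L: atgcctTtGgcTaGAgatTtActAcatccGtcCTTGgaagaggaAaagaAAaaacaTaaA
RPS27: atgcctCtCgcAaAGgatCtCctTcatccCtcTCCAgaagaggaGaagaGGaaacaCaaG
In the windows shown, RPL26L1 differed from RPL26 at 12 bases, RPL39L from RPL39 at 2, RPL36AL from RPL36A at 9 and RPS27L from RPS27 at 18. Over the whole coding sequence these pairs differed at 69 of 435, 8 of 153, 32 of 318 and 56 of 252 bases, in the same order. Stretches of 50 bases shared exactly by paralog and parent transcripts occurred in RPL39L, at 18 of 707 positions, and in RPL36AL, at 14 of 697 positions, and in none of the other 4 pairs. Exact matches of this length between a paralog and its parent were thus few.

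Start sites were compared for the TOP-like run because it is the shared feature of ribosomal protein messages. A run was scored when a C followed by at least 4 further C or T bases began within 5 bases of the RefSeq start (GRCh38.p14), on the transcribed strand. It was found in 7408 of 35116 start windows of all genes (21.096%) and in 58 of 76 windows of ribosomal protein genes other than RPL6 (76.316%). All 5 parents with a window held one, and of 6 windows from 5 paralogs 2 did, those of RPL22L1 and RPL36AL. If the C may not itself follow a C, the run of RPL36AL is not counted, nor are those of 2 of the 58 ribosomal protein windows (56 left), and 6916 windows of all genes remain (19.695%). The windows below show 15 bases before the start and 15 from it, with the run in capitals.
RPL22L1: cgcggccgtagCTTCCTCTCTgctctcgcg
RPL22: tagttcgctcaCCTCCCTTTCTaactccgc
RPL26L1: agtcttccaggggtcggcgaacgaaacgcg
RPL26: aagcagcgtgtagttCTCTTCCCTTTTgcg
RPL36AL: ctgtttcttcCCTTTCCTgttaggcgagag
RPL36A: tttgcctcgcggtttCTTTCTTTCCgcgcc
RPS27L: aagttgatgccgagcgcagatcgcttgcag
RPS27: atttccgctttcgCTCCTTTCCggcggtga
These windows lie, for paralogs and parents in the order shown, at chr3:170870181-170870210 (minus strand), chr1:6199581-6199610 (minus), chr5:172958714-172958743 (plus), chr17:8383179-8383208 (minus), chr14:49620612-49620641 (minus), chrX:101390996-101391025 (plus), chr15:63157463-63157492 (minus) and chr1:153990747-153990776 (plus). A missing run says only that no such run begins within 5 bases of this start. The window shown for RPL26L1 holds a run of sufficient length further upstream, left out by its position.

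RPL26L1 was the paralog that rose with both hairpins, and RPL36AL the one that fell with both. With shRPL6-1, 2 of 6 paralogs passed an adjusted p of 0.05 (edgeR quasi-likelihood test, Benjamini-Hochberg over all genes tested), where 8.51% of all genes tested did. One was higher, beside 4.44% of all genes, and 1 was lower, beside 4.07%. With shRPL6-2, 2 of 6 passed, beside 27.9% of all genes, again 1 higher, beside 13.3%, and 1 lower, beside 14.6%. The median log2 fold change of the 6 was 0.07 with shRPL6-1 and −0.0049 with shRPL6-2, and that of all genes tested was −0.01 and −0.03. Both comparisons use the same 3 shCont libraries, so they are not independent of each other. In these bulk libraries fewer cells expressing a gene and less RNA per cell cannot be told apart.

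**Figure D1:**
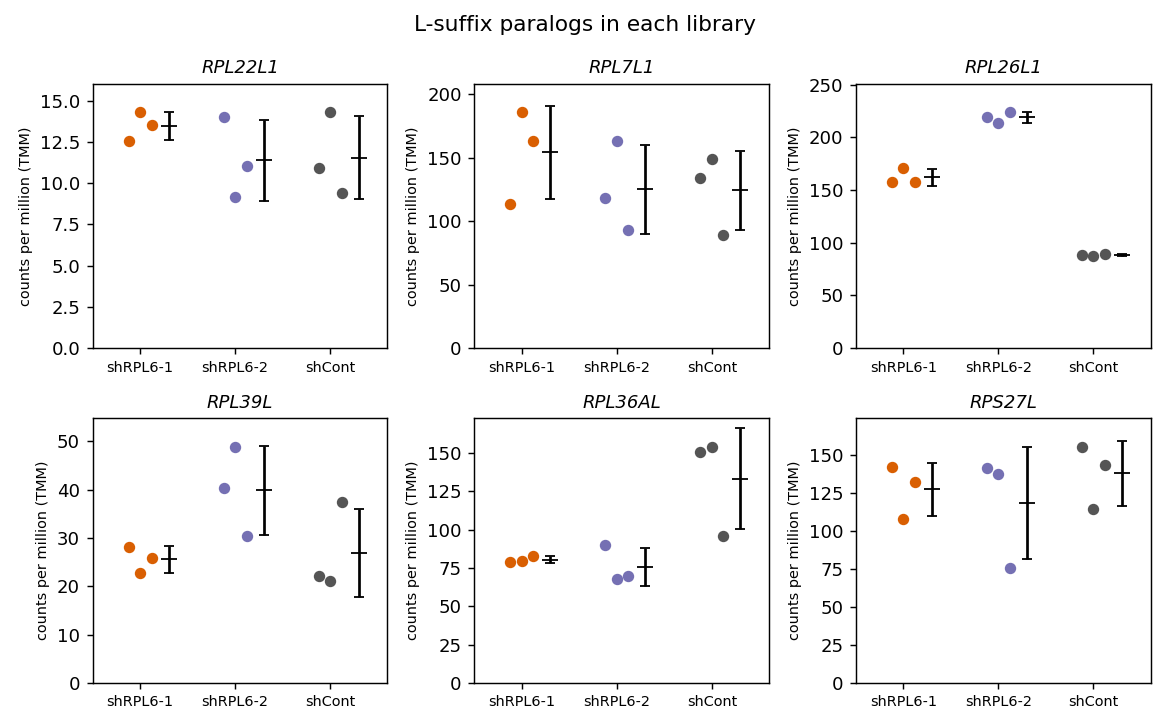
TMM-scaled CPM (y axis from 0) of each paralog in the 9 libraries by group; points are libraries and bars the mean ± SD (n = 3). RPL26L1 is separate in all 3 groups, with means of 162 and 219 CPM in the shRPL6-1 and shRPL6-2 libraries against 88.3 CPM in shCont, and RPL36AL is lower in both hairpin groups.

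RPL26L1 (ENSG00000037241, chromosome 5, 172958729 to 172969771), the second copy of a large-subunit protein that sits near the exit of the peptide tunnel, showed the largest change among the 6. RPL26L1 had 157, 171 and 158 CPM in the shRPL6-1 libraries and 220, 214 and 224 CPM in the shRPL6-2 libraries, against 88.1, 87.8 and 89.1 CPM in shCont. The 3 groups did not overlap, and the 3 shCont libraries had a coefficient of variation of 0.753%. The log2 fold change was 0.88 with shRPL6-1 (SE 0.13, edgeR adjusted p = 0.00791) and 1.31 with shRPL6-2 (SE 0.13, edgeR adjusted p = 0.000689), or 1.84-fold and 2.48-fold. Its increase was larger than that of 73 of 78 other ribosomal protein genes with shRPL6-1 and of 77 of 78 with shRPL6-2. Its call with shRPL6-2 held under all 19 alternatives and with shRPL6-1 under 18 of 19, the exception being the replicate block.

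The assignment of its reads is uncertain. Of the 693 positions at which a 50-base stretch of the RPL26L1 transcript was compared with all others, 326 were shared with the pseudogene RPL26P30, which was looked at after its sequence match was seen. RPL26P30 had 46.6, 43.3 and 43.9 CPM in the shRPL6-1 libraries and 64.1, 61.1 and 58.9 CPM in the shRPL6-2 libraries, against 24.8, 22.8 and 24.5 CPM in shCont. It took 20.2% to 22.9% of the sum of both genes in every one of the 9 libraries. Its own log2 fold change was 0.89 with shRPL6-1 (SE 0.14, edgeR adjusted p = 0.00986) and 1.35 with shRPL6-2 (SE 0.14, edgeR adjusted p = 0.000877). With its counts added to RPL26L1, an alternative chosen after seeing the data, RPL26L1 changed by 0.88 and 1.32 (edgeR adjusted p = 0.007 and 0.000686). The lncRNA AC008429.1 overlaps RPL26L1 and had 129 to 227 counts per library.

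RPL26, its parent, had 498, 378 and 439 CPM in the shRPL6-1 libraries and 677, 718 and 462 CPM in the shRPL6-2 libraries, against 352, 316 and 441 CPM in shCont. The shRPL6-1 and shCont libraries overlapped, and the lowest shRPL6-2 library was above the highest of shCont. Its log2 fold change was 0.24 with shRPL6-1 (SE 0.20, edgeR adjusted p = 0.444) and 0.74 with shRPL6-2 (SE 0.20, edgeR adjusted p = 0.0237). The shRPL6-2 call was lost on leaving out any 1 of shCont replicates 1 and 2 and shRPL6-2 replicates 1 and 2 (edgeR adjusted p up to 0.0979). It was also lost with the replicate block (edgeR adjusted p = 0.0641). Of 821 positions of the RPL26 transcript, 323 were shared with other genes, so the assignment of its reads is uncertain too. The gene AC135178.3 overlaps RPL26, with 556 to 1046 counts per library and log2 fold changes of 0.28 and 0.71 (edgeR adjusted p = 0.365 and 0.0249).

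RPL36AL (ENSG00000165502, chromosome 14, 49618530 to 49620626), whose protein lies close to the tRNA exit site of the large subunit, moved the other way. RPL36AL had 78.7, 79.3 and 82.7 CPM in the shRPL6-1 libraries and 89.7, 67.5 and 69.5 CPM in the shRPL6-2 libraries, against 150.2, 154 and 95.5 CPM in shCont. No hairpin library reached a shCont library, but shCont replicate 3, the one that stood apart, was nearer to the hairpin libraries than to its own group. The log2 fold change was −0.73 with shRPL6-1 (SE 0.20, edgeR adjusted p = 0.0483) and −0.82 with shRPL6-2 (SE 0.20, edgeR adjusted p = 0.0159). Without shCont replicate 3 it was −0.92 and −1.004, and without shCont replicate 2 it was −0.64 (edgeR adjusted p = 0.173) and −0.71 (edgeR adjusted p = 0.074). The calls held under 8 of 19 alternatives with shRPL6-1 and 16 of 19 with shRPL6-2, and without shCont replicate 1 both were lost (edgeR adjusted p = 0.163 and 0.0687). After a correction for the trend of each library with transcript GC content it was −0.53 (edgeR adjusted p = 0.0304) and −0.45 (edgeR adjusted p = 0.0387). Of the 78 other ribosomal protein genes, 1 fell further with shRPL6-1 and none did with shRPL6-2.

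RPL36A, its parent, was much less counted, with 28.6, 24.3 and 19.8 CPM in the shRPL6-1 libraries and 26, 32.8 and 25.1 CPM in the shRPL6-2 libraries, against 23.4, 18.7 and 19.8 CPM in shCont. Every shRPL6-2 library was above every shCont library. Its log2 fold changes of 0.23 and 0.44 missed the threshold (edgeR adjusted p = 0.443 and 0.109), but after the GC correction the value with shRPL6-2 was 0.82 (edgeR adjusted p = 0.0229). The readthrough gene RPL36A-HNRNPH2 shares 284 of 380 positions of the RPL36A transcript, so its reads and those of RPL36A are uncertain. RPL36A-HNRNPH2 had 22 to 100 counts per library and went the other way, at −0.54 and −1.22 (edgeR adjusted p = 0.197 and 0.0114). Its part in the values of RPL36A was not tested.

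**Figure D2:**
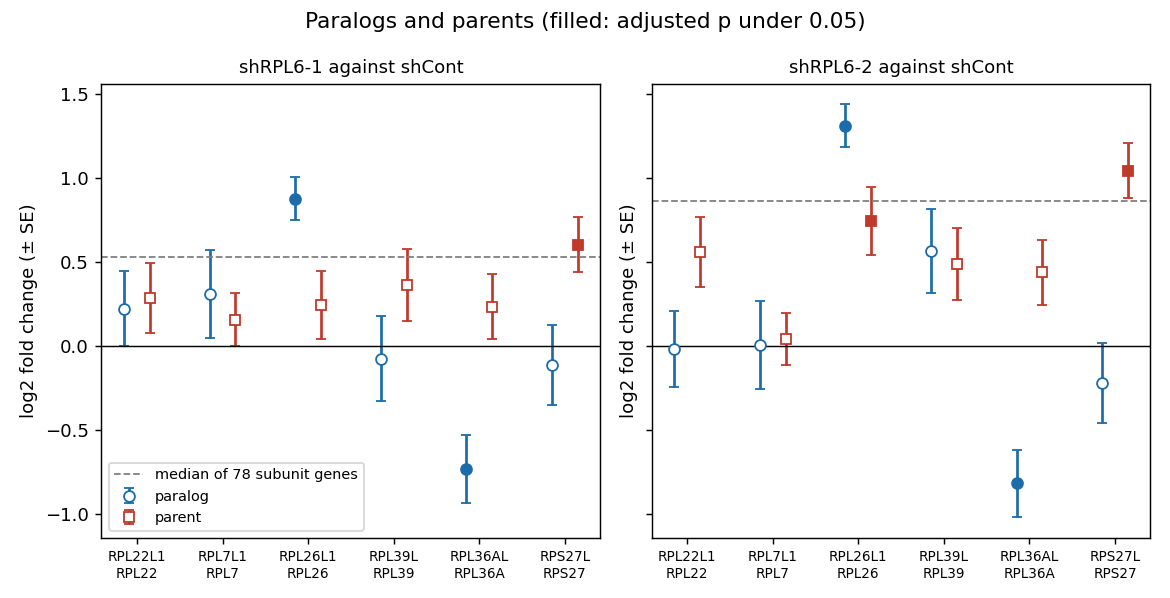
Log2 fold change (± SE) of each paralog (blue circles) and its parent (red squares) with shRPL6-1 (left) and shRPL6-2 (right) against shCont; filled symbols passed an adjusted p of 0.05 and the dashed line is the median of 78 ribosomal protein genes. RPL26L1 lies above that line with both hairpins (0.88 and 1.31) and RPL36AL far below it (−0.73 and −0.82).

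RPS27L (ENSG00000185088, chromosome 15, 63125872 to 63158021), a small-subunit paralog and known p53 target, did not pass the test although its parent did. RPS27L had 142, 108 and 132 CPM in the shRPL6-1 libraries and 142, 138 and 75.6 CPM in the shRPL6-2 libraries, against 155, 114 and 144 CPM in shCont. All 3 groups overlapped, and shRPL6-2 replicate 3 was the lowest. Its log2 fold change was −0.11 with shRPL6-1 (SE 0.24, edgeR adjusted p = 0.779) and −0.22 with shRPL6-2 (SE 0.24, edgeR adjusted p = 0.504), and both turned positive with the GC correction (0.03 and 0.09). The gene LACTB overlaps RPS27L and had log2 fold changes of −0.36 and −0.96 (edgeR adjusted p = 0.257 and 0.00936). How counting treated shared bases is not given in the sources used here.

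RPS27, the zinc-finger parent, had 138, 129 and 133 CPM in the shRPL6-1 libraries and 185, 186 and 171 CPM in the shRPL6-2 libraries, against 82.2, 73.5 and 107 CPM in shCont. The 3 groups did not overlap. RPS27 rose by 0.60 on the log2 scale with shRPL6-1 (SE 0.16, edgeR adjusted p = 0.0453) and by 1.04 with shRPL6-2 (SE 0.16, edgeR adjusted p = 0.00377). The first call held under 8 of 19 alternatives (edgeR adjusted p from 0.00363 to 0.181) and the second under all 19.

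RPL39L (ENSG00000163923, chromosome 3, 187120948 to 187180908), the paralog of a short protein lining the peptide tunnel, had the largest fold change between the hairpins among the 6. That difference missed the threshold (log2 fold change 0.64, SE 0.25, edgeR adjusted p = 0.394). RPL39L had 28.2, 22.7 and 25.8 CPM in the shRPL6-1 libraries and 40.4, 48.9 and 30.4 CPM in the shRPL6-2 libraries, against 22.1, 21.2 and 37.5 CPM in shCont. Again shCont replicate 3 departed from the other shCont libraries, here upwards, into the range of the shRPL6-2 libraries. Its log2 fold change was −0.07 with shRPL6-1 (SE 0.25, edgeR adjusted p = 0.869) and 0.57 with shRPL6-2 (SE 0.25, edgeR adjusted p = 0.111). Without shCont replicate 3 the values were 0.24 (edgeR adjusted p = 0.395) and 0.89 (edgeR adjusted p = 0.008). RPL39 had 69.5, 58.9 and 107 CPM in the shRPL6-1 libraries and 94.7, 82.6 and 79.8 CPM in the shRPL6-2 libraries, against 67.5, 61.1 and 55 CPM in shCont, with log2 fold changes of 0.36 and 0.49 (edgeR adjusted p = 0.287 and 0.111).

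RPL22L1 (ENSG00000163584, chromosome 3, 170864875 to 170870208) was the least counted of the 6, with 112 to 237 counts per library. RPL22L1 had 12.6, 14.3 and 13.5 CPM in the shRPL6-1 libraries and 14, 9.15 and 11 CPM in the shRPL6-2 libraries, against 10.9, 14.3 and 9.37 CPM in shCont. The groups overlapped, and the log2 fold changes of 0.22 and −0.02 had SEs of 0.22 each (edgeR adjusted p = 0.531 and 0.96). RPL22 had 431, 320 and 404 CPM in the shRPL6-1 libraries and 523, 525 and 349 CPM in the shRPL6-2 libraries, against 277, 284 and 387 CPM in shCont. Its log2 fold change was 0.28 with shRPL6-1 (edgeR adjusted p = 0.385) and 0.56 with shRPL6-2 (edgeR adjusted p = 0.0672), and the second passed under 5 of 19 alternatives.

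RPL7L1 (ENSG00000146223, chromosome 6, 42879616 to 42889925), the most diverged copy, is known as a factor of large-subunit assembly more than as a ribosome component. RPL7L1 had 114, 186 and 163 CPM in the shRPL6-1 libraries and 118, 163 and 93.3 CPM in the shRPL6-2 libraries, against 134, 149 and 89.4 CPM in shCont. The groups overlapped, and its libraries spread widely within each group (coefficients of variation of 23.9%, 28.4% and 25.1% with shRPL6-1, with shRPL6-2 and in shCont). Its log2 fold changes were 0.31 and 0.01 (SE 0.26 each, edgeR adjusted p = 0.451 and 0.984). RPL7 ran from 92.5 to 121 CPM with shRPL6-1 and from 94.1 to 115 CPM with shRPL6-2, against 94.7 to 102 CPM in shCont, with log2 fold changes of 0.16 and 0.04 (edgeR adjusted p = 0.531 and 0.864).

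The hairpins were also set against each other, shRPL6-2 over shRPL6-1. No paralog passed the edgeR test, beside 0.384% of all genes tested (0.0681% higher and 0.316% lower). At an unadjusted p under 0.05 there were 2, beside 10.9% of all genes, and DESeq2 called 1, beside 2.26% of the genes it tested. The 2 were RPL26L1, at 0.43 (SE 0.13, edgeR adjusted p = 0.232), and RPL39L, at 0.64 (SE 0.25, edgeR adjusted p = 0.394), and in both every shRPL6-2 library was above every shRPL6-1 library. The share of all genes separated in this way is not given here. RPL26L1 was the one that DESeq2 called (DESeq2 adjusted p = 0.0185), and it also passed edgeR with the GC correction (edgeR adjusted p = 0.0251).

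The paralog was next expressed as a share of paralog and parent together, which does not depend on scaling between libraries. Shares are percent of the FPKM of the pair, and the length behind each FPKM, recovered from counts and FPKM, was fixed per gene but differed widely within pairs: 676 bases for RPL36AL against 6078 for RPL36A, 11719 for RPS27L against 1921 for RPS27, and 2469 for RPL26L1 against 5337 for RPL26. The level of a share therefore rests on these lengths, and shares of counts are given beside it. With 3 against 3 libraries the two-sided exact permutation test cannot go below p = 0.1, so none of the 18 tests of 6 pairs in 3 comparisons could pass 0.05, and values at that limit mean only that the groups did not overlap.

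RPL26L1 made up 44.6% ± 4.51 of its pair with shRPL6-1 and 43.8% ± 6.42 with shRPL6-2, against 34.3% ± 3.62 in shCont (SD, n = 3 each; exact permutation p = 0.1 for each hairpin). In counts the shares were 27.2% and 26.7%, against 19.5%. RPS27L made up 13.5% ± 1.24 of its pair with shRPL6-1 and 9.58% ± 2.46 with shRPL6-2, against 20.7% ± 2.82 in shCont (SD, n = 3 each; exact permutation p = 0.1 for each), and the hairpins did not overlap either. In counts RPS27L made up 48.8% and 38.9%, against 61.2%. RPL36AL made up 96.7% ± 0.645 with shRPL6-1 and 96% ± 1.01 with shRPL6-2, against 98.2% ± 0.461 in shCont (SD, n = 3 each; exact permutation p = 0.1 for each), or 76.8% and 72.7% of counts against 86.2%. Both RPS27L and RPL36AL held a lower share in the hairpin libraries. The log2 fold changes within these pairs were −0.11 and −0.22 for RPS27L beside 0.60 and 1.04 for RPS27, and −0.73 and −0.82 for RPL36AL beside 0.23 and 0.44 for RPL36A, with shRPL6-1 and shRPL6-2 in that order.

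The other 3 shares overlapped between both hairpins and shCont. RPL22L1 made up 5.09% ± 1.08 of its pair with shRPL6-1 and 3.64% ± 1.01 with shRPL6-2, against 5.37% ± 1.77 in shCont (SD, n = 3 each; exact permutation p = 0.8 and 0.3). RPL7L1 made up 33.9% ± 8.35 and 30.8% ± 6.88, against 31.2% ± 5.07 in shCont (exact permutation p = 0.8 and 1). RPL39L made up 39.1% ± 6.69 and 46.6% ± 5.70, against 44.9% ± 10.1 in shCont (exact permutation p = 0.6 and 0.7). These levels are sensitive to pseudogenes of the parents, which held 84.8% to 86.6% of the reads of RPL7 and its pseudogenes, 85.5% to 91.1% for RPL39, 40.6% to 49.4% for RPL22 and 18.2% to 24.2% for RPL26, a group that includes RPL26P30, but at most 5.49% for RPL36A and 0.58% for RPS27. With pseudogene FPKM added to RPL36A, RPL36AL with shRPL6-1 no longer stood clear of shCont (95.2% to 96.48% against 96.475% to 97.8%), whereas RPL39L with shRPL6-1 then did (0.473% to 0.496% against 0.651% to 0.782%). With pseudogene FPKM added to the parent the mean share in shCont was 0.698% for RPL39L, 1.13% for RPL7L1 and 0.464% for RPL22L1.

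**Figure D3:**
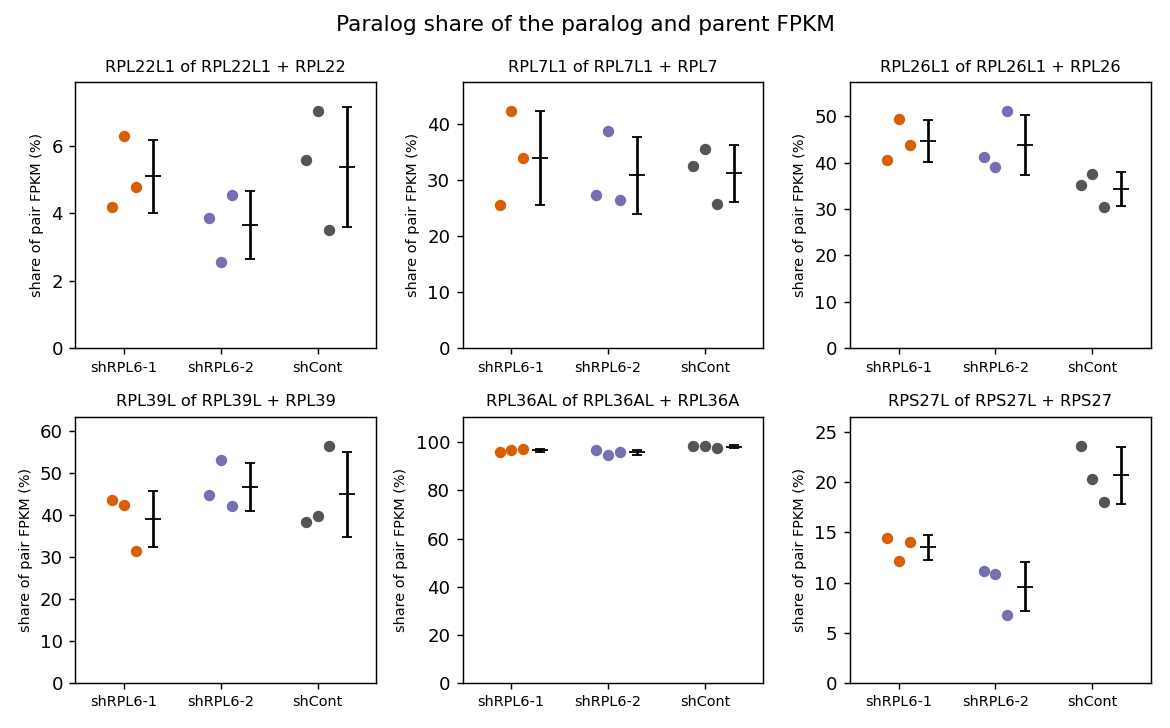
FPKM of each paralog as a percent of paralog plus parent FPKM (y axis from 0, scale set per pair) in the 9 libraries by group; bars are mean ± SD (n = 3). The RPS27L share is 13.5% and 9.58% with shRPL6-1 and shRPL6-2 against 20.7% in shCont, and the RPL26L1 share 44.6% and 43.8% against 34.3%.

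Most ribosomal protein genes around them had a positive fold change, 43 of 46 in the large subunit with each hairpin and, in the small subunit, 30 and 31 of 32 with shRPL6-1 and shRPL6-2. Among 46 large-subunit genes other than RPL6, 10 were called higher and none lower with shRPL6-1 (median log2 fold change 0.53), and 33 higher and none lower with shRPL6-2 (0.87). Among 32 small-subunit genes, 5 were called higher and 1 lower with shRPL6-1 (0.55), and 22 higher and none lower with shRPL6-2 (0.86). Beside these, 4.44% and 13.3% of all genes tested were called higher with shRPL6-1 and shRPL6-2, and 4.07% and 14.6% lower. RPL21 rose by 1.05 and 1.24, RPL11, which binds the p53 regulator MDM2, by 0.98 and 1.11, and RPS15 by 0.84 and 1.10. The exception was RPS24, named after its values were seen, which fell by 1.82 with shRPL6-1 (edgeR adjusted p = 0.000732) and differed by 1.75 between the hairpins. Without shCont replicate 3, an alternative added after seeing the data, 29 large-subunit and 23 small-subunit genes rose with shRPL6-1, beside 29% of all genes called in either direction. The paralogs other than RPL26L1 lay below the median of the 78 with both hairpins. The 2 further L-suffix copies RPL3L and RPL10L were not tested, since they did not pass the filter.

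Companion lists bear on what is known of the members. Of 26 p53 target genes tested, to which RPS27L functionally belongs but in which it was not counted, 10 were called lower with shRPL6-1 (median −0.69). With shRPL6-2, 14 were called lower (median −0.85), and none was called higher with either hairpin. Of all genes tested, 4.07% and 14.6% were called lower with shRPL6-1 and shRPL6-2, and 4.44% and 13.3% higher. TP53INP1, a p53-induced nuclear protein, fell by 2.77 and 3.34, and BTG2, an antiproliferative gene, by 0.96 and 0.96. Of 29 factors of pre-60S assembly, 3 were called higher with shRPL6-1 (median 0.28), beside 4.44% of all genes tested. There were 6 with shRPL6-2 (median −0.06), beside 13.3% of all genes. No factor was called lower with either hairpin, beside 4.07% and 14.6%, and those higher included PPAN, at 0.71 and 0.90. Without shCont replicate 3, 9 were higher and 2 lower with shRPL6-1, beside 29% of all genes called, and 9 higher and 6 lower with shRPL6-2, beside 43.6%.

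The genes whose levels ran most like each paralog over the 9 libraries were taken from 9659 protein-coding genes by Pearson correlation of log2 CPM, a description in which all points share 3 groups and their library makeup. RPL26L1 was nearest to CYREN (r = 0.99), a regulator of DNA end joining, and TMEM63A (0.98), and RPL26 stood 1803rd (0.73). RPL36AL was nearest to TMED5 (0.99), a cargo carrier of the secretory pathway, and SPART (0.99), and RPL36A stood 6662nd (−0.59). RPL39L was nearest to LRRC45 and SPIRE2 (0.99 each), RPS27L to CMTM3 (0.91) and CDC42SE1 (0.90), RPL7L1 to HACD1 (0.90) and CRCP (0.87), and RPL22L1 to GNPAT (0.87) and RCHY1 (0.85). No parent stood near the head of its paralog's order, with places of 1803 to 6929. Among the 6, RPL26L1 and RPL36AL ran most opposite (r = −0.84, 9 libraries).

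**Figure D4:**
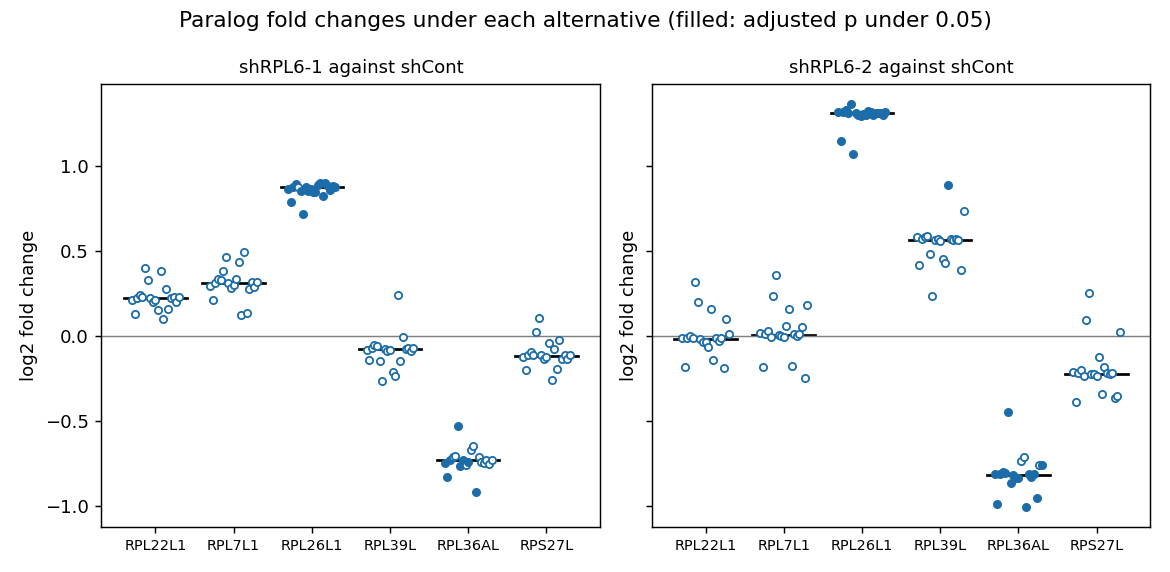
Log2 fold change of each paralog under 19 alternatives of processing, and 1 more for RPL26L1 (points, filled where the adjusted p was under 0.05), with the reported value as a bar, for shRPL6-1 (left) and shRPL6-2 (right) against shCont. RPL26L1 stays between 0.72 and 0.90 and between 1.07 and 1.37, whereas RPL36AL is called under 8 and 16 of the 19.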

How the data were processed

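Poly-A RNA of 9 MHCC97H libraries was made into stranded libraries and read paired-end by the authors. The submitters' processing notes name CASAVA 1.8, HISAT2, StringTie, edgeR and GRCh38; no annotation, counting program or use of strand is given in the sources used here. The deposited table holds whole-number counts per gene and FPKM, which the authors derived from those counts and a fixed gene length. The columns were matched to libraries by name.

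Counts were tested with edgeR 4.0.16 (R 4.3.3, limma 3.58.1): filterByExpr, TMM, a quasi-likelihood fit to all 9 libraries with 1 term per group, two-sided p-values adjusted by Benjamini-Hochberg over 16146 genes, threshold 0.05. SEs are the absolute log2 fold change over the square root of F. Scripts were tested on simulated data. log2 CPM used a prior count of 2, and likeness was computed above a mean log2 CPM of 3. DESeq2 1.42.0, other scalings, filters and GC corrections (15996 of 16146 genes had a transcript) were alternatives. Same-numbered libraries were not treated as pairs. Named genes are RPL6, the paralogs and parents, the 2 genes nearest to each paralog, and up to 3 members of each list with the smallest larger p of both hairpins. The members and lists were chosen with earlier results of these data known.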

Additional observations from a re-analysis of the deposited data

How the results depend on the processing

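Each log2 fold change was recomputed under 19 alternatives and each share under its own. The paralogs called with shRPL6-1 (2 of 6) numbered 1 without a filter on low counts and with only the 2 groups compared, 0 with the replicate block, and 1 to 2 on leaving out 1 library. Those called with shRPL6-2 (2 of 6) numbered 1 to 3 on leaving out 1 library, and 2 with the replicate block. Between the hairpins 1 was called with the GC trend correction, beside 1.17% of all genes, and with DESeq2, beside 2.26%. Deviations of same-numbered libraries from their group means had correlations from −0.466 to 0.252. With 3 libraries per group these values cannot decide whether the replicate numbers pair the samples. With the replicate block RPL26L1 was at 0.88 with shRPL6-1 (edgeR adjusted p = 0.0578) and 1.31 with shRPL6-2 (edgeR adjusted p = 0.0154), and RPL36AL at −0.71 (edgeR adjusted p = 0.117) and −0.81 (edgeR adjusted p = 0.0422), and all genes called with shRPL6-1 numbered 32 in place of 1374. Leaving out 1 library moved that count from 99 (without shCont replicate 2) to 4783 (without shCont replicate 3), and with shRPL6-2 from 1378 to 7201 in place of 4499. Library totals without TMM moved the median of all genes to −0.19 with shRPL6-2, where RPL7L1 was at −0.18 and RPL7 at −0.12.

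Sign changes were seen in values that passed no test, and the cause was not tested. With shRPL6-1, RPL39L ran from −0.24 to 0.24 on leaving out 1 library, and RPS27L was at 0.0256 with the GC trend correction and 0.11 with GC and length. With shRPL6-2, RPL22L1 was at 0.00251 without a filter, 0.32 with the GC trend and 0.20 with GC and length, and from −0.19 to 0.16 on leaving out 1 library. RPL7L1 was at −0.00413 with the replicate block, −0.00141 with only the 2 groups and −0.0075 with DESeq2, and from −0.25 to 0.19 on leaving out 1 library. RPS27L was at 0.0939 and 0.25 with the GC trend and with GC and length, and from −0.36 to 0.0235 on leaving out 1, and RPL7 ran from −0.0545 to 0.0915. Between the hairpins the GC trend gave 0.079 for RPL36AL, 0.0683 for RPS27L and 0.0826 for RPL7, GC and length gave 0.15 for RPS27L, and leaving out 1 library gave −0.25 to 0.13 for RPS27L and −0.0358 to 0.42 for RPL39.

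Share differences in percentage points changed sign on leaving out 1 library for RPL22L1 with shRPL6-1 (−1.22 to 0.547), RPL7L1 with shRPL6-1 (−1.45 to 6.90), with shRPL6-2 (−4.33 to 1.83) and between the hairpins (−7.26 to 1.09), RPL26L1 between the hairpins (−4.42 to 1.68) and RPL39L with shRPL6-2 (−1.52 to 7.52, and −0.0561 with pseudogenes added). Pairs without overlap numbered 3 to 5 with shRPL6-2 and 1 to 3 between the hairpins on leaving out 1 library. Between the hairpins they numbered 3 with pseudogenes added. With shRPL6-1 the number without overlap stayed at 3 with pseudogenes added, but RPL39L took the place of RPL36AL. When libraries were matched by replicate number, 3 pairs had differences of the same sign in all matched libraries between the hairpins. That is a count of signs, not of pairs without overlap. Groups left with fewer libraries separate more easily, and no such numbers are given here for other gene pairs. RPL22L1 was the least counted paralog, at 112 to 237 counts.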
